A study of Mus musculus with 28 samples.

Results

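The nuclear-encoded respiratory chain genes were the 87 genes of the 37974 in the single-cell table whose symbols name a subunit of complexes I to V (Nduf, Sdh, Uqcr, Cyc1, Cox4 to Cox8 and Atp5). Symbols holding -ps were left out. The 87 genes were found by symbol alone, and no measured value was used. Of these, 35 belonged to complex I, 4 to complex II, 9 to complex III, 19 to complex IV and 15 to complex V. Another 5 matched by name without being structural subunits: Cox7a2l, a factor of supercomplex assembly, Cox4nb, a subunit of the membrane protein complex of the endoplasmic reticulum, and Atp5s, Atp5sl and Atp5l2. Atp5l2 is annotated as a processed pseudogene. By the same gene identifier, 70 of the 87 were read among the 36358 genes of the tissue, and the other 17 were not analysed there. RNA came from C57BL/6 mice, and the labels name no transgene or treatment. Bulk tissue of the subventricular zone was taken at 3 weeks and at 18 months, with 3 samples per age. Single cells were sorted by size and complexity from papain-digested subventricular zone of mice aged 1 month and 24 months, and picked and typed by their marker RNA. There were 3 Prom1+ cells at 1 month and 3 at 24 months, 2 and 5 Gfap+ cells, and 5 and 4 Dlx2+/Dcx+ cells. No animal was named for a tissue sample or a cell, so the p-values of the tissue measure the spread between samples. The cells of 1 subpopulation and age counted as 1 sample, and differences between cells carry no test.

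The respiratory chain passes electrons from NADH (complex I) and succinate (complex II) through ubiquinone, complex III and cytochrome c to oxygen at complex IV, and the proton gradient this builds drives the ATP synthase, complex V. Most subunits are encoded in the nucleus and a few in the mitochondrial genome, so each complex except complex II is put together from both sources. Neural stem cells of this region are known to rely largely on glycolysis and to take up oxidative metabolism as they form neuroblasts and neurons. Several complex IV subunits exist in a common and an alternative form, the latter typical of muscle, testis or lung.

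FPKM, the number of fragments scaled by transcript length and by the fragments mapped, is the level used throughout. Gfap lay between 48.7 and 194 FPKM in the Gfap+ cells and at 0 in all 6 Prom1+ cells, and Dlx2 lay between 269.6 and 1916 FPKM in the Dlx2+/Dcx+ cells against at most 2.79 elsewhere. Prom1 was lowest at 1.49 FPKM, in a Prom1+ cell of 24 months, and reached 56.6 FPKM in another, with up to 6.29 FPKM in a Dlx2+/Dcx+ cell. The Gfap+ cells held 6346 to 19572 FPKM of the myelin gene Mbp, which marks oligodendrocytes, against at most 95.4 FPKM in the other cells. Their 6 astrocyte markers summed to 0 and 884 FPKM in the cells of 1 month and 100.2 to 2556 in those of 24 months. Of these, S100b reached 2181 FPKM, Aldoc 479.8 and Gja1 113, while Slc1a2 was at most 15.2 FPKM, Aqp4 at most 0.0934 and Aldh1l1 at 0. Gfap+ is used below as the name of the label only. Between 4398 and 6626 genes lay above 1 FPKM in a cell. The read depth of the cells is not in the table. In the tissue, low values moved in steps that put the samples at 36705915 to 44453243 fragments, or fewer if a step was 1 read of a pair, and 55.5% to 57.5% of the values of single-transcript genes lay within 0.02 of a whole step. In the tissue the summed FPKM of 6 neuroblast markers was 376 to 421 at 3 weeks and 234 to 254 at 18 months, and that of 7 neuron markers 1159 to 1785 and 2196 to 2752. Mbp had a log2 fold change of -3.44 between 3 weeks and 18 months, and Olig1, also of oligodendroglial cells, was listed at 0 in every tissue sample. The sums of neuroblast and neuron markers and Mbp did not overlap between the ages. Fewer cells of a type and less RNA per cell cannot be told apart in tissue. The part of these marker levels in the results on the tissue was not tested.

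The regions before the start sites were read for motifs, of which each stood in a minority of the members. RefSeq promoter windows (GRCm38.p6, 250 bases before to 50 after a start) were matched to 69 of the 87 members. NRF1, a regulator of nuclear genes for mitochondrial proteins, has the motif GCGCA and GCGC with 1 free base between them, and on either strand it was found in 17 of the 69 members (24.6%), against 5.19% of all 27025 genes. The YY1 motif, AA followed by 1 free base and ATGGCGG, was found in 7 members (10.1% against 1.59%), the GABPA motif CCGGAAGT in 5 (7.25% against 4.31%) and the TATA box letters TATAAA in 7 (10.1% against 15.7%). The motifs were searched separately and may overlap. NRF1 matches stood in members of all complexes, among them Sdha and Sdhd, Uqcrc1, Cox6a1, and Atp5c1, Atp5g2, Atp5g3 and Atp5h. None of the 4 alternative complex IV forms with a window (Cox6b2, Cox7a1, Cox7b2 and Cox8b) held an NRF1, YY1 or GABPA match, and 2 of the 4 held TATAAA. Stretches of 5 promoters are printed from upstream of the start, outside annotated exons, with NRF1 matches in capitals. Ndufb4, Cox6a1 and Atp5h show the match, Cox5b is the member with opposite age differences in 2 subpopulations, and Cox7a1 is an alternative form.
Ndufb4 (chr16:37654454-37654618, minus strand): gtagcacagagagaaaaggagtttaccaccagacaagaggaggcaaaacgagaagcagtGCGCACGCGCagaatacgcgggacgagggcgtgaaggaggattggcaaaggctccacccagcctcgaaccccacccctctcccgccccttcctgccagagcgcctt
Cox6a1 (chr5:115348982-115349129, minus strand): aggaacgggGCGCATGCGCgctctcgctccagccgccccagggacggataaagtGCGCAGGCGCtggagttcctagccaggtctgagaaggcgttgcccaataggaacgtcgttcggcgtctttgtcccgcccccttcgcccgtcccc
Atp5h (chr11:115419963-115420127, minus strand): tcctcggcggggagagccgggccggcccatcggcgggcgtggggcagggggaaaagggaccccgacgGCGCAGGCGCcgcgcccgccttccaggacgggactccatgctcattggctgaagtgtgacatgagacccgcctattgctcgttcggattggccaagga
Cox5b (chr1:36691237-36691448, plus strand): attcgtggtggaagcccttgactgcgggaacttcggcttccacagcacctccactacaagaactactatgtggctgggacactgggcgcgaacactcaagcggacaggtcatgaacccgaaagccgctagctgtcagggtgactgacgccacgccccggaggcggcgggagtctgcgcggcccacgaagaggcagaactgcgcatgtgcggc
Cox7a1 (chr7:30183921-30184143, plus strand): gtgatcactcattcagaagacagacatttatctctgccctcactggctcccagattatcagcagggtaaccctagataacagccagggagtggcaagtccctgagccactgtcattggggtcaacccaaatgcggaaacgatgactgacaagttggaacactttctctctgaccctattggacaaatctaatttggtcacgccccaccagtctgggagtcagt
The Cox6a1 stretch holds 2 NRF1 matches, those of Ndufb4 and Atp5h 1 each, and those of Cox5b and Cox7a1 none.

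In the tissue, no respiratory chain gene passed the limits between 3 weeks and 18 months. Of 68 members tested, 40 had a higher and 28 a lower mean log2 level at 18 months (41.2% of all genes were lower), and their median log2 fold change was 0.11, beside 0.09 over all 12287 genes tested. Age was tested with limma on log2(FPKM + 1), and a gene was called at an unadjusted p under 0.05 with an absolute log2 fold change above 1. By this rule 0 of 68 members were called, against 3.9% of all genes. Without the limit on size, 4 members were higher and 6 lower at an unadjusted p under 0.05, against 15.4% and 8.93% of all genes. These counts were 15 and 8 without 18 months replicate 1, and 1 and 4 without 18 months replicate 2. At an adjusted p under 0.05 there were 0 members, against 4.92%, and the smallest adjusted p of a member was 0.0727. Every sample of 18 months lay above every sample of 3 weeks for 10 members (20.9% of all genes) and below for 8 (12.2%). For 49 of 68 members (72.1%) the 95% interval of the log2 fold change lay within 1 of 0, against 64.5% of all genes. Together the members took 2.92% to 3.09% of the summed FPKM at 3 weeks and 2.85% to 3.32% at 18 months, ranges that overlapped. Leaving out the sample 18 months replicate 1 gave 3 members with an adjusted p under 0.05, Uqcrb and Atp5a1 higher and Cox7c lower, with log2 fold changes of 0.76, 0.60 and -0.52.

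**Figure D1:**
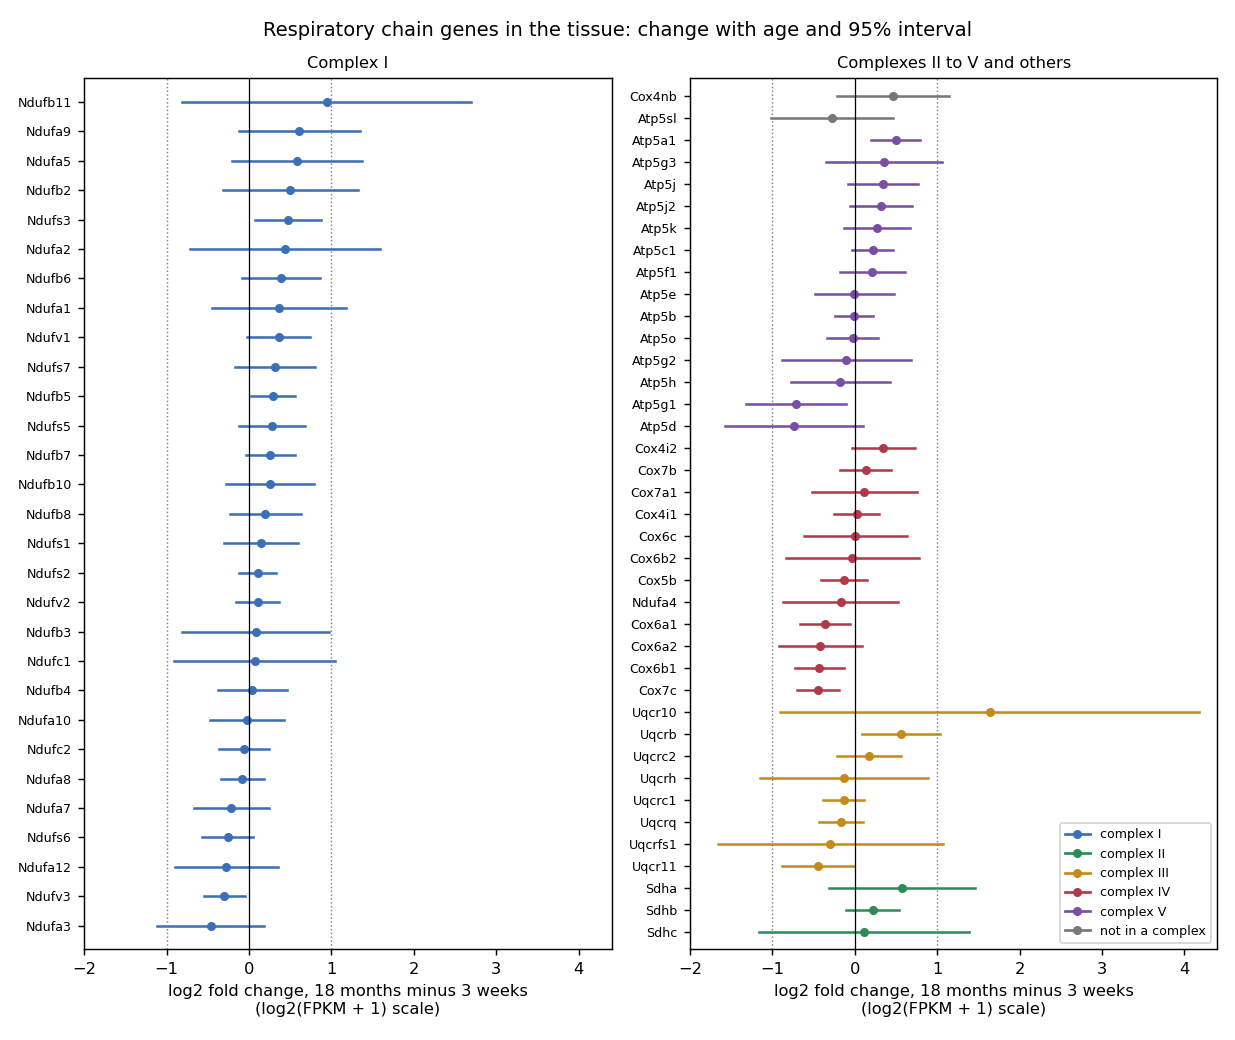
Log2 fold change of each of the 68 members tested in the tissue, older minus younger age in log2(FPKM + 1) (points), with its 95% interval from limma (bars), n = 3 samples per age. Dotted lines mark changes of 1 and -1. Most intervals cross 0, and the widest belong to Uqcr10 and Ndufb11.

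Complex I takes electrons from NADH. Of its 29 members tested in the tissue, 21 were higher at 18 months, with a median log2 fold change of 0.20. The 6 core subunits tested, which carry the flavin and the iron-sulfur clusters, all had log2 fold changes above 0, from 0.10 to 0.47. Ndufs3, a core subunit of the ubiquinone-facing arm, was at 45.6, 61.0 and 43.8 FPKM at 3 weeks and 62.1, 75.2 and 70.9 at 18 months. Its ages did not overlap, and the log2 fold change was 0.47 (SE 0.16, limma adjusted p = 0.155). Ndufv1, which binds the flavin, went from 56.2, 58.5 and 58.2 FPKM to 61.9, 90.4 and 73.1 (log2 fold change 0.36, SE 0.15, limma adjusted p = 0.225). Among the accessory subunits, Ndufa9 had a log2 fold change of 0.61 and Ndufa5 of 0.59, and in both the samples of the ages overlapped. Ndufb11 differed by 0.94, but 1 sample of 3 weeks stood apart: the values were 108, 109 and 17.7 FPKM at 3 weeks and 115, 120.0 and 112 at 18 months. Without that sample, 3 weeks replicate 3, its log2 fold change was 0.09. The lowest log2 fold change in complex I was that of Ndufa3, -0.46 (95% interval -1.12 to 0.19), whose levels were 284, 288 and 365 FPKM and then 299, 245 and 155. Ndufv3 was lower without overlap, from 83.9, 90.9 and 97.2 FPKM to 75.1, 68.9 and 76.6 (log2 fold change -0.30, SE 0.10, limma adjusted p = 0.155).

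Complex II, succinate dehydrogenase, also works in the citric acid cycle and holds no subunit of the mitochondrial genome. Its 3 subunits in the tissue table overlapped between the ages. Sdha, the flavoprotein, was at 102, 64.1 and 90.7 FPKM at 3 weeks and 74.5, 165 and 160.3 at 18 months (log2 fold change 0.57, 95% interval -0.32 to 1.46). Sdhb, the iron-sulfur subunit, differed by 0.22 on the log2 scale, and Sdhc, a membrane anchor, by 0.11 with an interval from -1.16 to 1.39. In complex III, which hands electrons to cytochrome c, 3 of 8 members tested were higher and 5 lower. The core subunits Uqcrc1, Uqcrc2 and Uqcrfs1 had log2 fold changes of -0.13, 0.17 and -0.30, with limma adjusted p of 0.458, 0.546 and 0.78. Uqcr11 was at 136, 194 and 155 FPKM at 3 weeks and 103, 115 and 136 at 18 months (log2 fold change -0.45, SE 0.17, limma adjusted p = 0.192). Uqcrb, which lies at a ubiquinone site, was at 79.1, 70.9 and 69.4 FPKM and then 81.3, 123 and 126 (log2 fold change 0.56, SE 0.19, limma adjusted p = 0.157). These small subunits of the same complex thus had point estimates on opposite sides of 0. Uqcr10 had the highest value of all members, 1.64 (SE 1.03), from 4.76, 5.54 and 2.34 FPKM to 6.19, 5.44 and 80.4. It rested on the sample 18 months replicate 3, without which the log2 fold change was 0.44.

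Complex IV, cytochrome c oxidase, reduces oxygen. Of its 12 members tested in the tissue, 7 were lower and 5 higher, with a median log2 fold change of -0.08. Of the 8 common nuclear subunits among them, 5 were lower (41.2% of all genes), and the median was -0.15. For 3 of the 8 the ages did not overlap and the gene was lower (12.2% of all genes). Cox7c was at 170.1, 184 and 172 FPKM at 3 weeks and 141, 126 and 118 at 18 months, a log2 fold change of -0.45 (SE 0.10, limma adjusted p = 0.0727). Cox6b1, which lies between the monomers of the dimer, was at 390.1, 429 and 415 FPKM and then 339, 316 and 264 (log2 fold change -0.43, SE 0.12, limma adjusted p = 0.108). Cox6a1 was at 617, 721 and 762 FPKM and then 565, 579 and 492 (log2 fold change -0.36, SE 0.12, limma adjusted p = 0.156). Each of these 3 was lower in 3 of 3 samples, and their size was under 1 on the log2 scale. By contrast Cox4i1, the largest nuclear subunit, was at 492, 474 and 442 FPKM at 3 weeks and 427, 481 and 524 at 18 months, with a log2 fold change of 0.02 (95% interval -0.25 to 0.29). Cox5b and Ndufa4 had log2 fold changes of -0.13 and -0.17, and their samples overlapped.

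Complex V makes ATP on a catalytic head, inside which a rotor ring turns the central stalk. Of 14 members tested, 7 were higher and 7 lower in the tissue. In the head, Atp5a1 was at 294, 303 and 285 FPKM at 3 weeks and 359.8, 467 and 424 at 18 months, a log2 fold change of 0.50 (SE 0.12, limma adjusted p = 0.0799). Its partner Atp5b was at 767, 779 and 754 FPKM and then 743, 828 and 709, with a log2 fold change of -0.02 and an interval from -0.25 to 0.22. Atp5c1, the shaft of the head, differed by 0.21, and Atp5d, also of the central stalk, had the lowest value of all members, -0.74 (95% interval -1.57 to 0.10), from 187, 185 and 248 FPKM to 169, 73.1 and 148. Per transcript length, Atp5b was above Atp5a1 in all 6 samples. The same protein of the rotor ring is made from Atp5g1, Atp5g2 and Atp5g3. Atp5g1 was at 57.1, 65.0 and 64.4 FPKM at 3 weeks and 46.6, 44.4 and 25.5 at 18 months (log2 fold change -0.71, 95% interval -1.31 to -0.10, limma adjusted p = 0.157). It made up 22.6% to 26.3% of the 3 genes' summed FPKM at 3 weeks and 12.3% to 18.6% at 18 months. Atp5g3 was the highest of the 3 in all 6 samples, at 38.8% to 53.0% and then 50.1% to 70.02%. Atp5g2 overlapped between the ages, with a log2 fold change of -0.10.

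**Figure D2:**
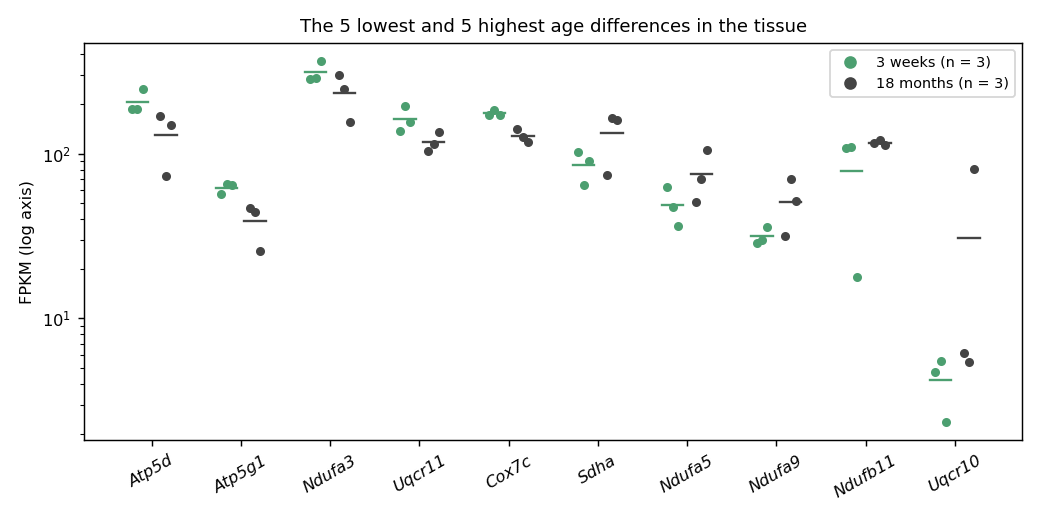
FPKM (log axis) of the 5 members with the lowest and the 5 with the highest log2 fold change in the tissue, in each sample (points) with the mean (short lines), n = 3 per age. Atp5d, Atp5g1, Uqcr11 and Cox7c are lower in every sample of 18 months, while Ndufb11 rests on 1 sample at 17.7 FPKM and Uqcr10 on 1 at 80.4.

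In single cells the members formed a small share of the RNA. They took 1.54% to 2.97% of the FPKM of nuclear genes in a cell (median 1.99%, 22 cells), and 65 to 77 of the 87 lay above 1 FPKM in a cell. In all 22 cells 36 members were above 1 FPKM, and 39 were listed at 0 in none. Detection differed by complex: 12 of 15 members of complex V and 10 of 19 of complex IV were above 1 FPKM in every cell, against 10 of 35 of complex I and 1 of 4 of complex II. The 3 genes of highest mean level over all cells were Ndufa4, now placed in complex IV (1113 FPKM), Atp5b (1048 FPKM) and Ndufb8 of complex I (844 FPKM). Ndufa4 and Atp5b were among the top 3 in each subpopulation. The remaining place was taken by Atp5j, of the peripheral stalk, in Prom1+ cells (714 FPKM), by Ndufb8 in Gfap+ cells (1502 FPKM) and by Ndufc1 in Dlx2+/Dcx+ cells (816 FPKM). Ndufa4 also varied least between cells, with a coefficient of variation of 0.42, and complex II members varied most (median 1.59, against 0.68 in complex IV and 0.79 in complex V). Ndufs1, the largest subunit of complex I, reached 65.1 FPKM in 1 Dlx2+/Dcx+ cell of 1 month and was at or under 21.1 FPKM in the others. Mean levels in the cells and in the tissue had a Pearson correlation of 0.71 on the log2 scale over 68 members, and a rank correlation of 0.59. Both levels were scaled by transcript length.

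**Figure D3:**
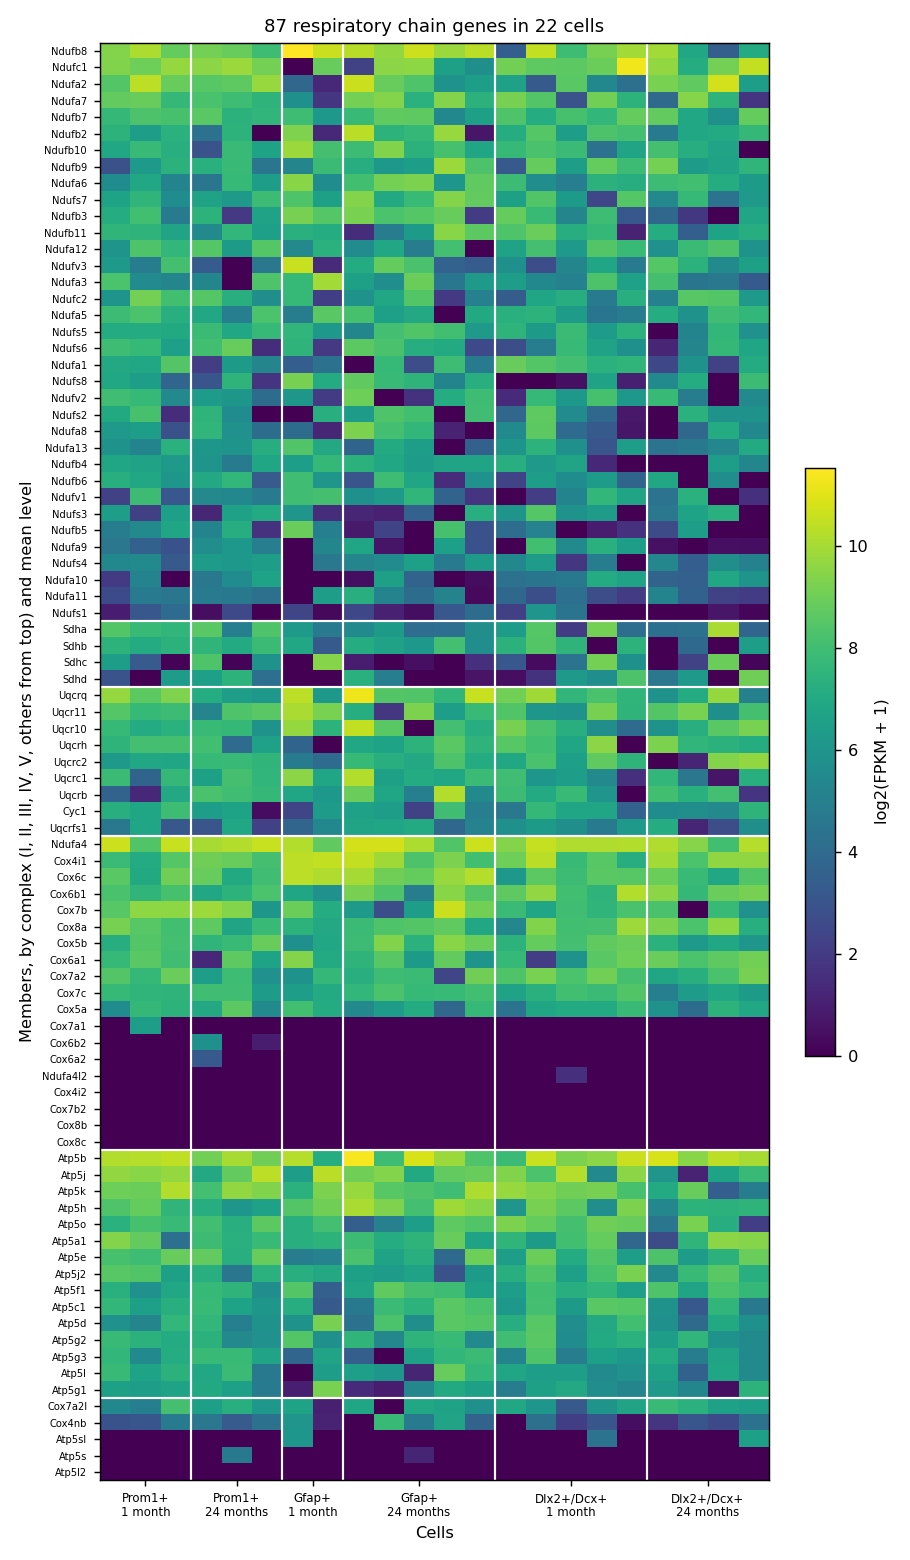
Log2(FPKM + 1) of the 87 members (rows, by complex and mean level) in 22 cells (columns, by subpopulation and age). Rows of complex IV and V are mostly filled in all cells, many rows of complex I and II have cells at 0, and 8 alternative complex IV forms are dark in almost all cells.

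The 4 alternative complex IV forms tested in the tissue were present there and almost absent from the cells. Cox4i2, the form typical of lung and pericytes, was at 4.1, 3.85 and 5.05 FPKM at 3 weeks and 5.33, 6.78 and 5.27 at 18 months (log2 fold change 0.35, SE 0.15, limma adjusted p = 0.241), and at 0 in all 22 cells. It made up 0.805% to 1.39% of the summed FPKM of Cox4i1 and Cox4i2 in the tissue. Cox6a2, the form of heart and skeletal muscle, lay between 13.6 and 26.7 FPKM in the tissue, which was 2.60% to 3.38% of the sum with Cox6a1. Among the cells it was above 1 FPKM in 1, a Prom1+ cell of 24 months with 8.44 FPKM of Cox6a2 and 1.55 of Cox6a1. The same cell held 54.0 FPKM of Cox6b2, a form typical of testis, which was above 1 FPKM in no other cell and between 6.48 and 13.0 FPKM in the tissue. Cox7a1, another form of muscle, was at 1.7 to 4.15 FPKM in the tissue and above 1 FPKM in 1 Prom1+ cell of 1 month (85.7 FPKM). Ndufa4l2, a relative of Ndufa4 typical of pericytes, was above 1 FPKM in 1 Dlx2+/Dcx+ cell. Cox8b and Cox8c, relatives of Cox8a, and Cox7b2 and Atp5l2 were never above 1 FPKM in a cell. In the tissue Cox7b2 was at most 0.639 FPKM and Atp5l2 was at 0, while Cox8b, Cox8c and Ndufa4l2 were not analysed there. Summed endothelial markers were at most 0.184 FPKM in a cell and 13.6 to 22.5 FPKM in the tissue. Ependymal markers were at most 11.6 FPKM in a cell and 113 to 181 FPKM in the tissue. Microglial markers were at most 106 FPKM in a cell and 224 to 349 FPKM in the tissue. Pericyte markers were not read, and the source of the alternative forms in the tissue was not tested. The common forms Cox7a2 and Cox8a lay between 4.29 and 594 and between 39.6 and 930.1 FPKM in the cells.

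**Figure D4:**
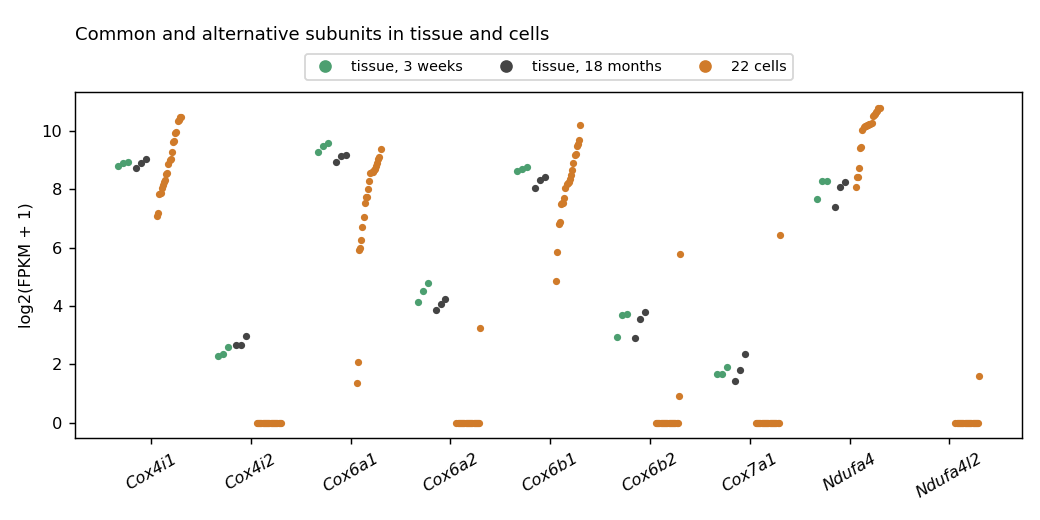
Log2(FPKM + 1) of common and alternative complex IV subunits in the 3 tissue samples of each age and in 22 cells (each point is a sample or cell). Cox4i1, Cox6b1 and Ndufa4 are high in all sets, Cox6a1 is high except in 2 cells at 1.55 and 3.27 FPKM, and Cox4i2 is at 0 in all cells and Cox6a2, Cox6b2, Cox7a1 and Ndufa4l2 are above 1 FPKM in 1 cell each. No tissue values of Ndufa4l2 were analysed.

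The rotor ring genes also differed between cells and tissue. Atp5g2 was the highest of the 3 in 5 of 7 Gfap+ cells and 5 of 9 Dlx2+/Dcx+ cells, against 0 of 6 tissue samples, where Atp5g3 was highest. In Prom1+ cells Atp5g3 was highest in 4 of 6 and Atp5g2 in 2 of 6. The share of Atp5g1 ran from 14.0% to 28.9% in Prom1+ cells but from 0.259% to 78.9% in Gfap+ cells, so that no order of the 3 held in all cells.

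In Prom1+ cells the members' share was lower at 24 months. They took 2.97%, 2.61% and 2.32% of the FPKM of nuclear genes in the cells of 1 month and 2.23%, 1.97% and 1.76% in those of 24 months, with no overlap. The ages also did not overlap when genes of the mitochondrial genome were kept in the total (1.75% to 1.92% against 1.37% to 1.71%). Nor did complex V overlap, with 0.902%, 0.700% and 0.684% at 1 month and 0.502%, 0.476% and 0.521% at 24 months, while complexes I to IV overlapped. Per gene, the median difference of mean log2(FPKM + 1) over the 77 members above 1 FPKM in at least 3 cells was -0.27, beside 0.00 over all 11332 such genes, and 47 members were lower (48% of all genes). The median was -0.030 without the cell of 24 months replicate 3, which had the lowest Prom1 level. A difference past 1 on the log2 scale was found for 8 members that were higher (22% of all genes) and 21 that were lower (24%). The cells did not overlap for 4 higher members (3.9% of all genes) and 6 lower ones (4.1%).

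Among the Prom1+ members past this fold without overlap, Uqcrq of complex III was at 832, 396 and 644 FPKM at 1 month and 143, 88.8 and 70.3 at 24 months, a difference of -2.62. Ndufa1, an accessory subunit of complex I, was at 124, 117 and 346 FPKM and then 3.3, 76.7 and 36.8 (difference -2.89). Ndufv3 was at 76.1, 28.3 and 281 FPKM and then 9.16, 0 and 24.0 (difference -3.76). In these 3 genes every cell of 24 months lay below every cell of 1 month. Atp5h, of the peripheral stalk of complex V, was at 333, 448 and 187 FPKM and then 145, 67.1 and 96.7 (difference -1.62). Cyc1, the cytochrome c1 of complex III, differed by -2.80, most of it from a single cell of 24 months at 0.307 FPKM. In the other direction, Uqcrb was at 11.7, 1.54 and 125 FPKM and then 299, 257 and 204 (difference 3.98). Uqcrc2 was at 75.4, 116 and 111 FPKM and then 211, 228 and 189 (difference 1.07). Ndufs4 and Ndufa9, both of complex I, were higher by 1.61 and 1.90. Complex III thus held members on both sides.

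**Figure D5:**
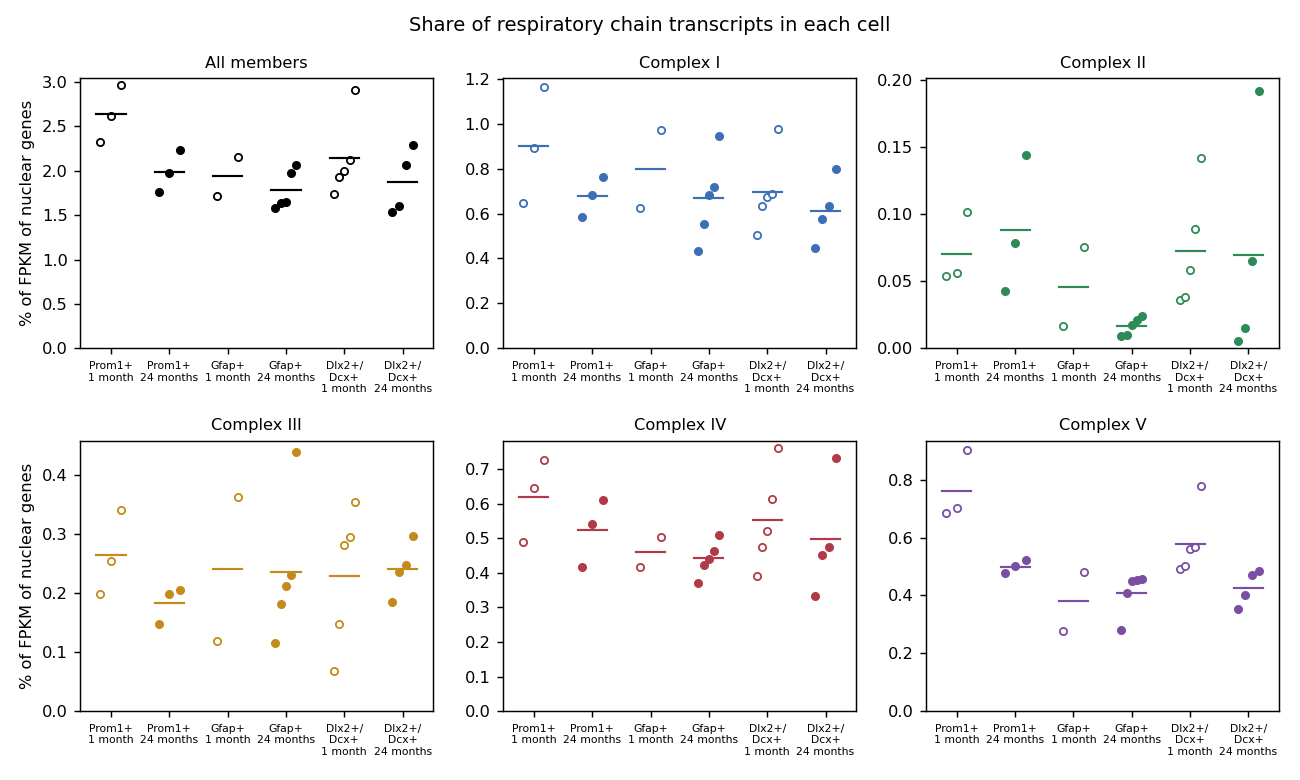
Share of the FPKM of nuclear genes taken by all members and by each complex in every cell (points, open at 1 month and filled at 24 months) with the group mean (lines). In Prom1+ cells all members and complex V are lower at 24 months without overlap, and complex II is at or under 0.0245% in the 5 Gfap+ cells of 24 months.

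In Dlx2+/Dcx+ cells the ages overlapped in the members' share, which was 1.93%, 2.91%, 1.74%, 2.12% and 1.998% at 1 month and 2.28%, 1.54%, 2.07% and 1.60% at 24 months. Complex V was at 0.490% to 0.777% at 1 month and 0.352% to 0.483% at 24 months, with no overlap. The median difference of the members was -0.47, beside -0.14 over all genes, and 49 were lower (55.8% of all genes). Past the fold were 9 members that were higher (16.6% of all genes) and 28 that were lower (27.1%), or 15 higher without 24 months replicate 1, and the cells did not overlap for 0 higher (0.644%) and 2 lower members (1.08%). Of 4 astrocyte markers 3, and of 4 neuron markers 2, were also past the fold and lower (medians -2.53 and -1.55), and their part in the members' values was not tested. Ndufa1 was at 466.2, 352, 272, 163 and 189 FPKM at 1 month and 4.59, 59.2, 3.83 and 136 at 24 months (difference -3.63). This gene was lower without overlap in Prom1+ cells too. Cox5b, a zinc-binding subunit of complex IV, was at 177, 449, 273, 424 and 479 FPKM and then 164, 74.9, 117 and 66.0 (difference -1.76). Of 77 members, 15 had lower means at 24 months in each of the 3 subpopulations, against 10.7% of all genes, and 10 had higher means, against 11.1%. The other 52 differed in sign.

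The age difference of Gfap+ cells rested on 2 cells of 1 month. Genes of the mitochondrial genome took 35.9% and 31.9% of the FPKM in these. They took 15.4% to 22.3% in the 5 cells of 24 months, without overlap. Most of this was mt-Ts1, a tRNA gene, at 28.7% and 20.7% at 1 month and 10.4% to 15.9% at 24 months. The protein genes of the mitochondrial genome took 1.01% and 0.837% at 1 month and 0.601% to 0.918% at 24 months, which overlapped. The part of these shares in the differences was not tested. The members' share was 2.15% and 1.72% at 1 month and 1.58% to 2.07% at 24 months, and the ages overlapped. The median difference of the members was 0.64, beside 0.16 over all genes, with 31 members lower (37.6% of all genes), but -0.17 without 1 month replicate 2 and 0.33 without 1 month replicate 1. Past the fold were 28 higher members (29.6% of all genes) and 19 lower ones (19.6%), and the cells did not overlap for 7 higher (2.8%) and 2 lower ones (3.1%). Without 1 month replicate 2, 29 were lower past the fold. Cox5b was at 53.9 and 115 FPKM at 1 month and 243, 660.4, 166, 716 and 492 at 24 months (difference 2.30), opposite in direction to the Dlx2+/Dcx+ cells. Uqcrh, which binds cytochrome c1, was at 12.3 and 0 FPKM and then 117, 103, 175, 380.0 and 184 (difference 5.56). Ndufa2 and Ndufa7, accessory subunits of complex I, were higher by 5.52 and 4.75. Ndufv1 was at 258 and 279 FPKM and then 55.1, 72.8, 191, 12.3 and 2.32 (difference -3.06), and Atp5j2 was lower by 1.35 (difference -1.35). In 6 of the 7 Gfap+ cells, of both ages, the FPKM of all genes summed to more than in any Prom1+ or Dlx2+/Dcx+ cell, and its part in the levels was not tested.

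Between subpopulations, complex II took a smaller share in Gfap+ than in Prom1+ cells at 24 months. Its share of the FPKM of nuclear genes was 0.0245%, 0.0171%, 0.0101%, 0.0215% and 0.00914% in the 5 Gfap+ cells and 0.144%, 0.0427% and 0.0785% in the 3 Prom1+ cells, with no overlap. The Dlx2+/Dcx+ cells of that age spanned both, with 0.00581%, 0.0153%, 0.192% and 0.0652%. The summed FPKM of the complex II subunits did overlap, at 86.8 to 344 in these Gfap+ cells and 337 to 989 in these Prom1+ cells. Sdha was at 43.0, 77.0, 16.4, 17.6 and 50.5 FPKM in the Gfap+ cells and 380.2, 29.9 and 333 in the Prom1+ cells, so the gene alone overlapped in 1 cell. At 1 month the complex II share overlapped, with 0.0165% and 0.0751% in Gfap+ cells and 0.101%, 0.0541% and 0.0563% in Prom1+ cells, while Sdha was at 72.8 and 25.4 FPKM in Gfap+ cells and 349, 227 and 195 in Prom1+ cells (difference -2.50). Sdhc, an anchor of the complex, was at or under 2.05 FPKM in all 5 Gfap+ cells of 24 months, yet at 696 FPKM in 1 Gfap+ cell of 1 month. In the Prom1+ cells of 24 months Sdhc was at 330, 0.0882 and 58.15 FPKM. Sdhd, the other anchor, was at 0 in 4 of 7 Gfap+ cells.

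Gfap+ cells were compared with Prom1+ cells at both ages. At 24 months the members' median difference was -0.08, beside -0.09 over all genes, and -0.63 beside -0.29 when each cell was scaled to 1 total (TPM). Of the members, 40 were lower (52.2% of all genes). Past the fold were 19 higher (26.6% of all genes) and 17 lower members (31.9%), or 13 and 26 with TPM, and 3 higher (4.99%) and 0 lower (5.84%) did not overlap. Ndufb8 was at 1267, 809.9, 1633, 889.9 and 1326 FPKM in Gfap+ cells and 558, 470.2 and 252 in Prom1+ cells (difference 1.4998). Atp5h was at 1094, 643, 272, 949.6 and 724 FPKM against 145, 67.1 and 96.7 (difference 2.75), and Uqcrq was higher by 2.65. At 1 month, with 2 Gfap+ cells, the median difference was -0.91 beside -0.37 over all genes, with 52 members lower (58.3% of all genes), and -0.22 without Gfap+ 1 month replicate 2. Past the fold were 19 higher (23.7%) and 37 lower members (38.4%), or 10 and 46 with TPM, and 8 higher (10.4%) and 15 lower (16%) did not overlap. Among the members without overlap, the largest differences were those of Ndufa2 (-6.71), Uqcrh (-6.03) and Ndufc1 (-4.93), and of Ndufv1 (3.65), Cox4i1 (2.60) and Ndufs8 (2.44).

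Dlx2+/Dcx+ cells had lower means than Prom1+ cells for 50 of 77 members at each age, against 50.4% of all genes at 1 month and 55.8% at 24 months. At 1 month the median difference was -0.39 beside -0.01 over all genes (-0.13 with medians over cells and -0.24 without Dlx2+/Dcx+ 1 month replicate 5), with 8 members past the fold that were higher (20% of all genes) and 23 that were lower (25.6%). Without Prom1+ 1 month replicate 1, 5 were higher. The cells did not overlap for 0 higher (1.6%) and 1 lower member (2.12%), Cox7b of complex IV, which was at 234, 109, 259, 189 and 297 FPKM against 373, 775 and 768 (difference -1.55). At 24 months the median difference was -0.61 beside -0.17, with 10 members higher (18.9%) and 31 lower (31.7%) past the fold, and 1 higher (2.16%) and 4 lower (5.36%) without overlap. Ndufa9 was at 0.442, 0, 0.369 and 0.36 FPKM in Dlx2+/Dcx+ cells and 49.8, 71.2 and 29.9 in Prom1+ cells (difference -5.24). Sdhb was at 0, 14.4, 0 and 84.0 FPKM against 188, 131 and 232 (difference -4.90). Cox5b was lower by 1.45 (difference -1.45) and Ndufs4 had a difference of -1.43, while Ndufv3 was at 358, 168, 44.3 and 92.2 FPKM against 9.16, 0 and 24.0 (difference 4.32).

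Between Gfap+ and Dlx2+/Dcx+ cells the median difference had opposite signs at the 2 ages. At 24 months the members' median difference, Gfap+ minus Dlx2+/Dcx+, was 0.58 beside 0.05 over all genes, with 31 members lower (46.1% of all genes), but 0.089 beside -0.035 with TPM scaling and 0.17 without Gfap+ 24 months replicate 4. Past the fold were 32 higher (31.6% of all genes) and 14 lower members (25.6%), or 25 and 24 with TPM, and 3 higher (4.81%) and 0 lower (2.82%) did not overlap: Cox7c (1.78), Cox5b (1.98) and Atp5h (2.44). Cox7c was at 201, 308, 215, 220.2 and 266 FPKM in Gfap+ cells and 30.9, 80.2, 117 and 77.7 in Dlx2+/Dcx+ cells. At 1 month the median difference was -0.77 beside -0.37, with 46 members lower (58.5% of all genes), but 0.21 without Gfap+ 1 month replicate 2. Past the fold were 19 higher (24.7%) and 28 lower members (36.4%), or 17 and 42 with TPM, and 6 higher (7.93%) and 9 lower (7.75%) did not overlap. Without Gfap+ 1 month replicate 2, 30 were higher past the fold. Ndufs8 (6.51), Ndufv1 (3.73) and Ndufb8 (2.89) were the most positive of these and Ndufa10 (-5.45), Sdhd (-4.45) and Ndufa1 (-4.19) the most negative. Ndufs8, a core subunit with iron-sulfur clusters, was at 579 and 137 FPKM in Gfap+ cells and 0, 0, 0.401, 101 and 1.05 in Dlx2+/Dcx+ cells.

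Genes that build and feed the respiratory chain were read beside its subunits in the tissue. Over all genes, 3.9% were called. Of 27 assembly factors tested, 1 was called higher and 0 lower: Cox17, a copper chaperone for complex IV, was at 33.6, 7.48 and 8.02 FPKM at 3 weeks and 41.0, 67.2 and 59.6 at 18 months (log2 fold change 2.01, SE 0.59, limma adjusted p = 0.117). Of 15 regulators of mitochondrial biogenesis, 0 were called, with a median log2 fold change of 0.14. Of 11 genes of the citric acid cycle and pyruvate entry, 0 were called, with a median of 0.33. At an unadjusted p under 0.05, 5 were higher (15.4% of all genes). Of 14 genes of glycolysis, 0 were past the size limit, and 2 had an adjusted p under 0.05 (4.92% of all genes), both forms of phosphofructokinase. Pfkp was at 26.1, 24.0 and 29.99 FPKM and then 42.9, 46.4 and 50.1 (log2 fold change 0.78, SE 0.13, limma adjusted p = 0.0315). Pfkl had a log2 fold change of 0.64 (limma adjusted p = 0.0466). Of 17 mobile carriers and electron transfer genes, 1 was called higher and 1 lower. Coq10b, a ubiquinone-binding protein, had a log2 fold change of 1.18, and Gpd2, the mitochondrial glycerol-3-phosphate dehydrogenase, was at 11.1, 15.5 and 14.4 FPKM and then 2.01, 5.56 and 5.51 (log2 fold change -1.53, SE 0.35, limma adjusted p = 0.0688). Of 8 carriers of nucleotides and phosphate, 0 were called.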

How the data were processed

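The authors deposited FPKM values for 6 tissue samples and 22 Smart-seq2 cells, 1 column each. HISAT2, StringTie and featureCounts are named in the submitters' processing notes, with GRCm38; versions, and any scaling between samples, are not given in the sources used here. No molecular identifiers were used and no counts were analysed. Members, gene lists and rules for named genes were chosen with earlier results of these data known. Named were the 5 highest and lowest members in the tissue, core subunits, alternative forms, members leading each subpopulation or cell comparison, and listed genes past the limits. Positions and symbols came from GENCODE M21, promoters from RefSeq.

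Genes that reached 1 FPKM in 3 or more of the 6 tissue samples were fitted with limma 3.58.1 (lmFit, eBayes with trend, R 4.3.3) on log2(FPKM + 1), with Benjamini-Hochberg adjustment over 12287 genes. The log scale understates changes of low genes. FPKM is a share, so abundant genes move the others. Cells were compared by means of log2(FPKM + 1) over 11332 genes above 1 FPKM in at least 3 cells, with Python 3.11.15, numpy 2.4.6 and pandas 2.3.3. The fits were tested on simulated data. Alternatives were a pseudocount of 0.1, no filter, TPM, TPM without genes of the mitochondrial genome, quantile normalization, a replicate block, medians over cells, an adjusted p, and each sample or cell left out. A marker gene and the sums that hold it are not reported here.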

Additional observations from a re-analysis of the deposited data

Results flagged for a closer look

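Cox5b stood out because every Gfap+ cell of 24 months lay above every Gfap+ cell of 1 month (difference 2.30 on the log2(FPKM + 1) scale, 5 against 2 cells), while every Dlx2+/Dcx+ cell of 24 months lay below every one of 1 month (difference -1.76, 4 against 5 cells). The difference between the subpopulations was not tested, since no animal is named for a cell. In the tissue the log2 fold change of Cox5b was -0.13, with overlapping ages.

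The share of complex V in the FPKM of nuclear genes had a cell far from the others of its group in 2 groups. Among the 5 Dlx2+/Dcx+ cells of 1 month the highest was at 0.777%, and the other 4 were at 0.490% to 0.567%. Among the 5 Gfap+ cells of 24 months the lowest was at 0.280%, and the other 4 were at 0.407% to 0.455%. The rule was applied to 27 combinations of group and measure and chance flags about 1 in 20.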

How the results depend on the processing

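In the tissue, 0 members were called under any alternative, and the median log2 fold change of the members ran from 0.04 to 0.15. With the replicate number as a block 0 members were called, and 2 were higher and 3 lower at an unadjusted limma p under 0.05. Same-numbered samples had deviations that correlated at -0.10, -0.01 and -0.10. The labels name no pairs, and correlations over so few samples cannot show whether the samples were paired. Over all genes 225 were called higher and 254 lower, 416 and 349 with a pseudocount of 0.1 and 521 and 370 with TPM. At an adjusted p under 0.05 there were 308 and 297, 4 and 13 with the block and 201 and 213 without a filter. Genes of the mitochondrial genome were not analysed in the tissue. In cells, TPM moved the members' median from -0.91 to -1.54 (Gfap+ minus Prom1+, 1 month), from -0.08 to -0.63 (the same, 24 months) and from 0.58 to 0.089 (Gfap+ minus Dlx2+/Dcx+, 24 months), and TPM without genes of the mitochondrial genome to -1.52, -0.70 and 0.11. The cause was not tested. Medians over cells gave 0.14 for Gfap+ minus Prom1+ at 24 months. Leaving out each cell in turn gave medians of -0.41 to -0.030 for age in Prom1+ cells, -0.17 to 0.64 for age in Gfap+ cells, -0.89 to -0.22 and -0.17 to 0.15 for Gfap+ minus Prom1+ at 1 and 24 months, and -0.80 to 0.21 and 0.17 to 0.67 for Gfap+ minus Dlx2+/Dcx+. Counts of members past the fold, with both directions summed, stayed within 1.5 times under every alternative run, but single directions did not: with TPM, 19 higher became 10 (Gfap+ minus Prom1+, 1 month), 17 lower became 26 (the same, 24 months) and 14 lower became 24 (Gfap+ minus Dlx2+/Dcx+, 24 months). For Dlx2+/Dcx+ minus Prom1+, leaving out each cell gave medians of -0.55 to -0.24 at 1 month and -0.83 to -0.52 at 24 months. Low values are limited by depth, and the small groups of cells allow no test.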

Other observations

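The lists of genes around the respiratory chain had median age differences of either sign in the cells, with no test. In Dlx2+/Dcx+ cells the 17 genes of the citric acid cycle had a median difference of -2.07 between 24 months and 1 month, beside -0.14 over all genes. Past 1 on the log2 scale, 9 of them were lower (27.1% of all genes) and 0 higher (16.6%). The lowest was Idh3b, a subunit of isocitrate dehydrogenase, at -4.48 with no overlap between the ages, and the highest was Idh3a, of the same enzyme, at 0.62. The summed FPKM of the 17 genes was 695 to 2010 at 1 month and 224 to 889 at 24 months, which overlapped. In Prom1+ cells the same list had a median of 0.35 and in Gfap+ cells of -0.51.

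The 12 protein genes of the mitochondrial genome that passed the filter all had lower means at 24 months in Prom1+ cells, against 48% of all genes. Their median was -0.35, from -0.72 for mt-Nd5 to -0.15 for mt-Nd2, but none of them was past the fold and the cells overlapped. In Gfap+ cells 9 of the 12 were lower (37.6% of all genes) and mt-Nd3 was higher by 5.36 without overlap. The summed FPKM of glycolysis genes was 1782 to 3686 in Gfap+ cells of 24 months and 234 to 1296 in the Prom1+ and Dlx2+/Dcx+ cells of both ages, with no overlap, but 919.6 and 1763 in the Gfap+ cells of 1 month, which overlapped.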
